A study of Homo sapiens with 6 samples.

Results

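The 34 genes described here code for the unfolded protein response (UPR) and the integrated stress response (ISR). They were taken by symbol from a fixed list that was not filtered by their values, although it was chosen with earlier results of these data known. All 34 were found among the 57445 genes of the table. MDA-MB231 cells, a triple-negative breast cancer line, were transduced with lentiviral pGIPZ vectors at a multiplicity of infection of 5 and selected with 2 µg/ml puromycin. The 2 conditions were cells with the control vector (shCTL, 3 libraries) and cells with a vector against ROR1 (shRor1, 3 libraries), and both carried an integrated vector and puromycin resistance. ROR1 is a receptor tyrosine kinase-like protein that binds Wnt ligands, and the comparison asks which transcripts differ when its mRNA is targeted. The labels call the control an empty vector, whereas the study's methods describe a non-silencing shRNA. The column headers of the control libraries also carry the word DMSO, which stands in neither the labels nor the methods. Each condition is 1 selected cell population, and nothing says that its 3 libraries came from separate cultures, so p-values measure the spread between these libraries, which may be technical.

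The endoplasmic reticulum (ER) folds secreted and membrane proteins. When unfolded proteins accumulate, the chaperone BiP (HSPA5) is released from 3 sensors in the ER membrane, IRE1 (ERN1), PERK (EIF2AK3) and ATF6. IRE1 splices XBP1 mRNA into the form that codes for an active transcription factor, ATF6 is cut in the Golgi by site proteases, and PERK phosphorylates eIF2α. Phosphorylated eIF2α lowers general translation while ATF4 is translated more, and the same step is reached by other kinases when amino acids are short, which is the ISR. XBP1 and ATF6 raise chaperones and ER-associated degradation (ERAD), and ATF4 raises amino acid enzymes, transporters and the feedback genes PPP1R15A and TRIB3. Much of this control acts on splicing, cleavage, phosphorylation and translation, which a table of gene-level mRNA does not show.

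Expression was given as TPM (transcripts in each 1000000), which are scaled for gene length, so levels of different genes may be compared. Every library summed to 1000000 TPM and the read depth of a column was not recoverable from the values, so no counting interval is given. The markers of the cell line were present (VIM at 2399 to 2920 TPM, AXL at 347 to 438 TPM), and of the luminal markers ESR1 was at or below 0.21 TPM and PGR at or below 0.01 TPM. The other luminal markers were detected, EPCAM at 12.58 to 15.8 TPM, GATA3 at 3.83 to 4.69 TPM, FOXA1 at 3.72 to 5.45 TPM and CDH1 at 0.8 to 1.47 TPM. All 3 shRor1 libraries were above all 3 of shCTL for CDH1 (exact permutation p = 0.1), an order found in 6.48% of all genes tested. The part of CDH1 in the results was not tested. Of the leukocyte markers PTPRC, CD3E and CD14 were at or below 0.54 TPM while CD68 lay between 138 and 239 TPM, and of the fibroblast markers COL1A1 was at 7.25 to 13.87 TPM, DCN at 0.76 to 1.38 TPM, COL1A2 at or below 0.14 TPM and LUM at 0 in all 6 libraries. ROR1 itself was at 15.42, 13.49 and 20.56 TPM in the shCTL libraries and at 9.34, 11.93 and 14.85 TPM in shRor1. Its mean was lower in shRor1 but the conditions overlapped, with a log2 fold change of -0.43 (limma, adjusted p = 0.984). Without the library shRor1 3 the log2 fold change was -0.58, and without shCTL 3 it was -0.26. The study describes the ROR1 knockdown as stable and shows the protein by Western blot, a level that these mRNA values do not measure. Because the cells were measured in bulk, fewer cells with a transcript and less of it per cell cannot be told apart.

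Several of these genes carry short upstream sequences through which the UPR factors are known to act, and those found are shown here because they group the genes by the factor known to bind each element. RefSeq windows of 300 bases (250 before to 50 after the start, GRCh38.p14) were matched for 33 of the 34 genes and searched on both strands. The sites were placed on GRCh37, the build of the authors, by an exact and unique match. The ER stress response element (ERSE, CCAAT and CCACG separated by 9 bases) is bound by ATF6 and XBP1 together with NF-Y. It was found in 6 of the 33 genes (18.2%) and in 0.0916% of all 27305 genes with a window. Each sequence is written 5′ to 3′ on the strand that carries the element, with both motifs in capitals and 5 bases on either side.
HSPA5, 66 to 48 bases before the start: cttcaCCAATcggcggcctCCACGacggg
HSP90B1, 194 to 176 bases before the start: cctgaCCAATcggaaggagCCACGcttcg
HSP90B1, 89 to 71 bases before the start: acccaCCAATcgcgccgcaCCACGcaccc
CALR, 225 to 207 bases before the start: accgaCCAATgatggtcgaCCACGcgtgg
CANX, 151 to 133 bases before the start: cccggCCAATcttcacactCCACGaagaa
CRELD2, 80 to 62 bases before the start: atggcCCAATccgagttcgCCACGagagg
XBP1, 52 to 34 bases before the start: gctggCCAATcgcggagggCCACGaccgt

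Without flanks, the ERSE of HSPA5 lies at chr9:128003670-128003688 (minus strand) on GRCh37. The 2 of HSP90B1 lie at chr12:104323994-104324012 (plus) and chr12:104324099-104324117 (minus), and that of CALR at chr19:13049198-13049216 (minus). The elements of CANX, CRELD2 and XBP1 lie at chr5:179125779-179125797 (plus), chr22:50312202-50312220 (minus) and chr22:29196591-29196609 (minus). All 7 lie before the RefSeq start that defines the window and outside the canonical transcript in GENCODE 44 mapped to GRCh37. Because some transcripts start farther upstream there, 4 of the 7 are within the annotated gene. Those of CANX and HSP90B1 overlap an exon of such a transcript and that of CRELD2 does not, and none is in coding sequence. Of the 6 genes, 5 are chaperones or their cofactors and 1 is a transcription factor.

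A shorter form, ERSE-II (ATTGG, 1 base, then CCACG), was found in 3 of the 33 genes and in 0.0696% of all genes with a window. The UPR element (UPRE, TGACGTGG), which XBP1 is known to bind, was found in 1 of the 33, HYOU1, where it overlaps an ERSE-II, and in 0.927% of all genes with a window. The capitals mark the element.
HERPUD1, ERSE-II, 117 to 107 bases before the start: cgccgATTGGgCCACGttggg
HYOU1, ERSE-II, 79 to 69 bases before the start: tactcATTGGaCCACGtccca
HYOU1, ERSE-II, 185 to 175 bases before the start: ctgggATTGGaCCACGtcacg
HYOU1, UPRE, on the other strand: ccccgTGACGTGGtccaa
SDF2L1, ERSE-II, 188 to 178 bases before the start: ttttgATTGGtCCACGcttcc

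On GRCh37 these ERSE-II sites lie at chr16:56965937-56965947 (HERPUD1, plus strand), chr11:118927985-118927995 and chr11:118928091-118928101 (HYOU1, plus) and chr22:21996403-21996413 (SDF2L1, minus). The UPRE of HYOU1 is at chr11:118928097-118928104 (minus). All of these are outside the annotated gene.

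ATF4 acts with C/EBP proteins through a composite element. Its form TGATGNAAT was found in 0 of the 33 genes and in 1.22% of all genes with a window. The shorter TGATGNAA, chosen after that search, was found in 4 of the 33 (ASNS, CHAC1, HERPUD1 and CREB3L2, the last not before the RefSeq start) and in 4.46% of all. Among 27 other known ATF4 targets with a window it was found in 12. The 3 sites before that start are shown with the element in capitals. That of HERPUD1 is outside the annotated gene, whereas those of ASNS and CHAC1 overlap noncoding exon sequence of transcripts that start farther upstream than the canonical one.
ASNS, 68 to 61 bases before the start, chr7:97501781-97501788, minus: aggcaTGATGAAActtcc
CHAC1, 209 to 202 bases before the start, chr15:41245460-41245467, minus: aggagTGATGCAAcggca
HERPUD1, 176 to 169 bases before the start, chr16:56965878-56965885, minus: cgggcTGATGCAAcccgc

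A match of letters describes the window and is no evidence that a factor was bound in these cells. A missing match says only that these letters are not in the window.

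No gene of the UPR or ISR passed the test between shRor1 and shCTL. All 34 were expressed at a level that was tested (at least 1 TPM in at least 3 libraries). The count with an adjusted p below 0.05 was 0 of 34 (limma, Benjamini-Hochberg over all 16554 genes tested), beside 0.0% of all genes tested. Their adjusted p ran from 0.984 to 0.998. At an unadjusted p below 0.05, 1 gene was higher in shRor1, the ER co-chaperone DNAJB9, and 0 were lower, beside 2.31% of all genes tested that were higher and 0.544% that were lower. The 3 libraries of shRor1 lay above all 3 of shCTL for 2 genes, HSPA5 and DNAJB9, beside 6.48% of all genes tested. They lay below all 3 of shCTL for 0 genes, beside 1.3% of all genes. These shares are close to those of the transcriptome, and each rests on at most 2 genes.

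The differences were small on the scale of log2(TPM + 1), on which every log2 fold change is given. They ran from -0.17 (SESN2) to 0.35 (DNAJB9), with a median of 0.03 beside 0.05 over all genes tested. By their sign 22 genes had the higher mean in shRor1 and 12 the lower, beside 11093 and 5461 of all 16554 genes tested. With median ratio scaling, which brings the median of all genes to 0.00, it was 14 and 20, beside 8308 and 8246 of all genes. For 24 of the 34 the 95% interval of the log2 fold change lay wholly within 0.5 of 0 on either side. The widest intervals belonged to SESN2 (-0.71 to 0.38) and PPP1R15A (-0.67 to 0.46). An interval gives the changes compatible with the values and is no detection limit of the adjusted test. In libraries simulated from the means and spreads of the genes tested, 200 of 16554 genes were changed. At an adjusted p below 0.05 limma called 1.1% of those changed by 0.5 and 71.4% of those changed by 1. The simulation drew the noise of each gene independently and averaged over genes of every spread. It thus lacks shifts that genes of a library share, and it gives no rate for the 34 genes. In it, changes of 0.5, larger than any seen here, were rarely called with 3 libraries a condition. The absolute log2 fold change was larger than the spread between libraries of a condition (pooled SD on the log2 scale) for 8 of the 34. The same count was not made over all genes tested, so whether 8 is many or few is not known.

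**Figure D1:**
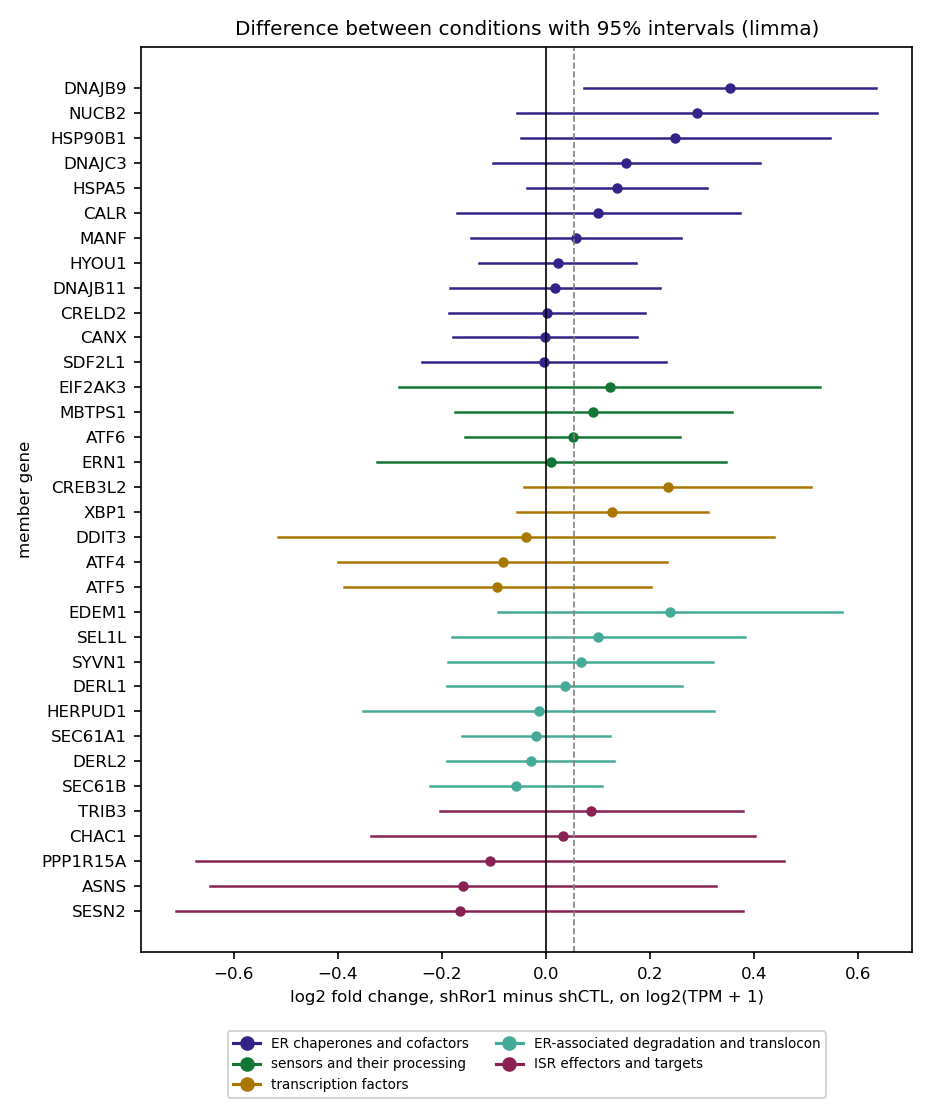
Log2 fold change of each of the 34 genes, shRor1 minus shCTL on log2(TPM + 1), with its 95% interval from limma, coloured by role; the solid line is 0 and the dashed line the median of all genes tested (0.05). The interval of DNAJB9 is the 1 that lies wholly above 0, and none lies wholly below.

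Levels in shCTL spanned from 5.67 TPM (ERN1) to 1028 TPM (CANX). There were 11 genes above 100 TPM and 5 below 10 TPM by their shCTL mean. CANX, CALR and HSP90B1, the lectin chaperones calnexin and calreticulin and the ER form of HSP90, were the 3 above 500 TPM. The genes below 10 TPM were ERN1, SESN2, DNAJB9, CHAC1 and EIF2AK3, which thus include 2 of the sensors. Summed, the 34 genes took 5358, 5022 and 5329 TPM in shCTL and 5330, 5383 and 5875 TPM in shRor1. The sum in shRor1 3 was the highest, and the other 5 libraries lay between 5022 and 5383 TPM.

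The ER chaperones and their cofactors had mean levels at or slightly above shCTL in shRor1. Of the 12, 10 had a positive log2 fold change and 2 a negative one (median 0.08), beside 11093 and 5461 of all 16554 genes tested. Under median ratio scaling the split was 6 and 6. The pooled SD between libraries had a median of 0.11 in this group, beside 0.15 over all genes tested. Among its members were the 2 genes whose conditions did not overlap.

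DNAJB9 (ERdj4), a BiP co-chaperone that also holds IRE1 inactive and is a known target of XBP1, was at 6.07, 7.07 and 6.63 TPM in the shCTL libraries and at 7.65, 9.57 and 8.92 TPM in shRor1. All 3 shRor1 libraries were above the highest shCTL library. Its mean was 32.2% higher (6.59 ± 0.501 against 8.71 ± 0.977 TPM, SD, n = 3 each), a log2 fold change of 0.35 with an SE of 0.12 and a 95% interval of 0.07 to 0.63. The limma p was 0.0202 before and 0.984 after adjustment, and the exact permutation test gave p = 0.1, the smallest that 3 against 3 libraries can give. The unadjusted limma p was 0.0774 without shCTL 1, 0.0706 without shRor1 2 and 0.0548 with quantile normalization, and below 0.05 without each of the other 4 libraries.

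HSPA5 (BiP), the central ER chaperone and the usual readout of ER stress, was at 356.08, 334.07 and 355.66 TPM in the shCTL libraries and at 358.86, 381.65 and 410.92 TPM in shRor1. The conditions did not overlap, although shRor1 1 was nearly level with the highest shCTL library. The mean was 10.1% higher (348.6 ± 12.6 against 383.8 ± 26.1 TPM), a log2 fold change of 0.14 with a 95% interval of -0.04 to 0.31 (exact permutation p = 0.1, limma adjusted p = 0.984).

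HSP90B1 (GRP94), which folds integrins and Toll-like receptors, was at 799.02, 797.95 and 852.96 TPM in the shCTL libraries and at 789.61, 1040.98 and 1109.52 TPM in shRor1. Its shRor1 libraries 2 and 3 were above every shCTL library, whereas shRor1 1 was below them all. The log2 fold change was 0.25 with a 95% interval of -0.05 to 0.54 (exact permutation p = 0.4). NUCB2, a calcium-binding protein of the secretory pathway, showed a like arrangement, with shRor1 1 within the range of shCTL. It was at 66.84, 72.47 and 75.59 TPM in shCTL and 68.87, 93.35 and 104.91 TPM in shRor1. Its log2 fold change was 0.29 with an interval of -0.06 to 0.64 (exact permutation p = 0.3). DNAJC3 (p58IPK), a co-chaperone that also restrains PERK, was at 19.94, 19.04 and 20.41 TPM in the shCTL libraries and at 19.11, 22.8 and 24.88 TPM in shRor1, again with libraries 2 and 3 above and library 1 within shCTL. Its log2 fold change was 0.15 (exact permutation p = 0.3).

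For these 3 genes and for EDEM1, described with the ERAD genes, the difference rests on shRor1 2 and 3. Library shRor1 1 was the lowest of shRor1 in each of them, so leaving it out had to raise their values. Without shRor1 1 the log2 fold changes were 0.40 for HSP90B1, 0.46 for NUCB2, 0.26 for DNAJC3 and 0.40 for EDEM1. With it left out, 8 of the 34 genes had an unadjusted limma p below 0.05. In that fit the count over all 16554 genes tested also went from 472 to 1720. The share was larger among the 34 than among all genes, and this was not tested. Of the 6 fits with a library left out, this one had the highest count both among the 34 and over all genes, so it is no separate evidence of a difference. The smallest adjusted p (limma) of a UPR or ISR gene was 0.44.

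In the remaining chaperones the means differed less than the libraries of a condition did. CALR, which folds glycoproteins and holds calcium, was at 973.48, 898.4 and 1077.74 TPM in the shCTL libraries and at 969.23, 974.11 and 1230.3 TPM in shRor1. CANX, its membrane-bound relative, was at 1092.33, 968.1 and 1023.57 TPM and at 1055.8, 975.7 and 1046.67 TPM (means 1028 and 1026 TPM). Among the carriers of the ERSE the log2 fold change thus ran from -0.0019 for CANX to 0.25 for HSP90B1. HYOU1 (GRP170), the nucleotide exchange factor of BiP with an ERSE-II pair and a UPRE, was at 199.27, 189.57 and 204.46 TPM and at 201.72, 194.67 and 206.05 TPM. Its interval was among the narrowest, from -0.13 to 0.17. SDF2L1, CRELD2, MANF and DNAJB11 are ER proteins that rise readily under ER stress. The log2 fold changes were -0.0040 for SDF2L1, 0.0017 for CRELD2, 0.06 for MANF and 0.02 for DNAJB11, and in all of these the conditions overlapped.

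**Figure D2:**
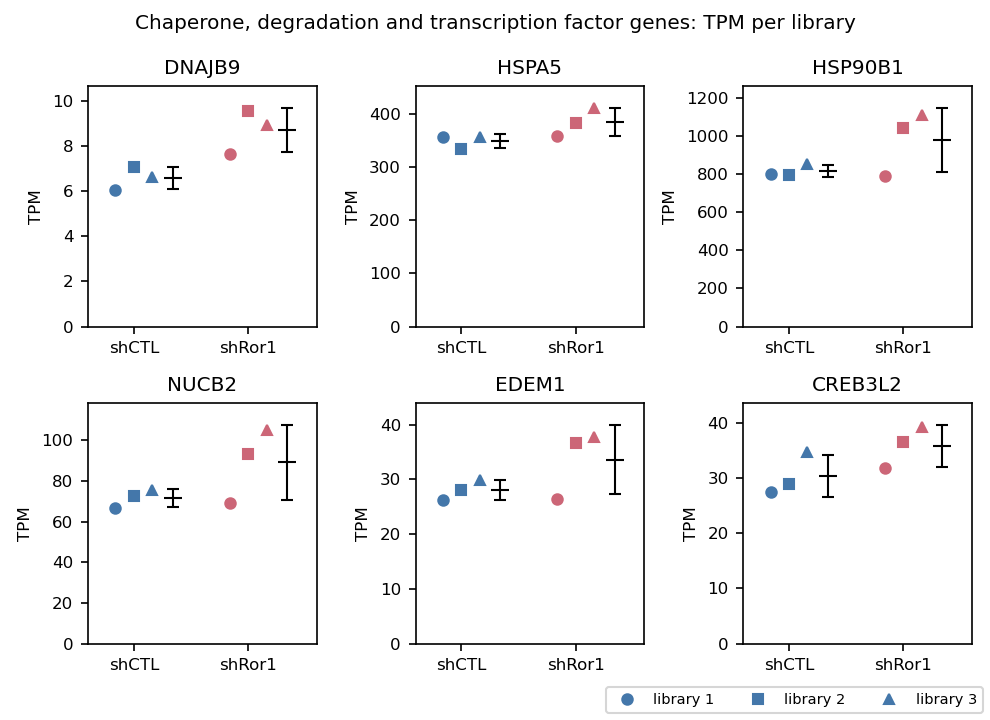
TPM of DNAJB9, HSPA5, HSP90B1, NUCB2, EDEM1 and CREB3L2 in the 3 shCTL (blue) and 3 shRor1 (red) libraries, numbered by column order, with the mean and SD of each condition in black; each axis starts at 0. The conditions are apart for DNAJB9 and HSPA5, while for HSP90B1, NUCB2 and EDEM1 the shRor1 1 library lies among or below the shCTL libraries.

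The sensors were expressed at 5.67 to 52.66 TPM (shCTL means) and none differed beyond its spread. ERN1 (IRE1) was at 6.53, 5.93 and 4.55 TPM in the shCTL libraries and at 5.67, 5.25 and 6.1 TPM in shRor1, with means of 5.67 TPM in both. EIF2AK3 (PERK) was at 8.77, 9.48 and 10.7 TPM and at 8.56, 9.86 and 13.89 TPM, so that shRor1 3 stood above and the others within shCTL or just below it. ATF6 stayed between 19.3 and 22.43 TPM over all 6 libraries. MBTPS1, the site-1 protease that cuts ATF6, was at 50.55, 51.65 and 55.79 TPM and at 52.18, 50.72 and 66.71 TPM. The 4 log2 fold changes were all positive, between 0.01 and 0.12, as were those of 11093 of all 16554 genes tested. With quantile normalization or median ratio scaling only 2 of the 4 were.

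Among the transcription factors, XBP1 was at 65.52, 65.04 and 58.07 TPM in the shCTL libraries and at 69.05, 71.7 and 65.42 TPM in shRor1. The lowest shRor1 library was level with the upper shCTL libraries, and the log2 fold change of 0.13 had a 95% interval of -0.06 to 0.31 (exact permutation p = 0.2). Spliced and unspliced XBP1 were not told apart in these values. CREB3L2, an ER-anchored factor processed like ATF6 that raises secretory pathway genes, was at 27.37, 28.98 and 34.7 TPM and at 31.73, 36.54 and 39.16 TPM. Its log2 fold change was 0.23 with an interval of -0.04 to 0.51 (exact permutation p = 0.2), and shRor1 2 and 3 were above all shCTL libraries.

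The factors of the PERK and eIF2α arm had the lower mean in shRor1. ATF4 was at 391.03, 325.16 and 333.97 TPM in the shCTL libraries and at 401.14, 285.16 and 312.12 TPM in shRor1. Each condition held 1 high library and 2 lower ones, and the high ones were nearly level. ATF5, which is also translated more when eIF2α is phosphorylated, was at 30.79, 27.05 and 27.88 TPM and at 32.27, 24.81 and 23.71 TPM, with the same library highest in each condition as for ATF4. DDIT3 (CHOP), the pro-apoptotic factor downstream of ATF4, was at 35.22, 47.1 and 29.49 TPM and at 44.34, 36.08 and 28.21 TPM. It varied 1.57-fold within shRor1 and by as much within shCTL, while the means were 37.27 and 36.21 TPM. The log2 fold changes were -0.08 for ATF4, -0.09 for ATF5 and -0.04 for DDIT3, and those of ATF4 and DDIT3 turned positive when 1 library was left out.

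The 8 genes of ERAD and the translocon were divided evenly by sign, with 4 above and 4 below 0 and a median log2 fold change of 0.01. EDEM1, a lectin that directs misfolded glycoproteins to degradation and a known XBP1 target, had the largest value of 0.24 with an interval of -0.09 to 0.57. It was at 26.15, 28.11 and 29.8 TPM in the shCTL libraries and at 26.36, 36.69 and 37.79 TPM in shRor1. SEL1L and SYVN1 (HRD1) form the core of the HRD1 ubiquitin ligase. SEL1L stayed between 29.98 and 32.66 TPM in 5 libraries and was at 41.14 TPM in shRor1 3. SYVN1 ranged from 28.5 to 36.9 TPM in shCTL and from 31.33 to 34.56 TPM in shRor1.

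HERPUD1, a scaffold of that ligase whose window holds both an ERSE-II and the ATF4 element, was at 35.12, 36.43 and 45.96 TPM in the shCTL libraries and at 37.56, 33.21 and 45.75 TPM in shRor1. Its highest libraries, shCTL 3 and shRor1 3, were nearly level, while the SD within a condition was 5.92 and 6.37 TPM. DERL1 and DERL2, which help to move substrates out of the ER, had log2 fold changes of 0.04 and -0.03. SEC61A1 and SEC61B, subunits of the channel through which proteins enter the ER, are members of the same group. SEC61A1, with the smallest pooled SD of the 8 genes (0.034), lay between 174.75 and 184.13 TPM over all 6 libraries, with an interval of -0.16 to 0.12, and SEC61B between 126.5 and 143.43 TPM.

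The effectors and targets of the ISR had the largest spread between libraries of a condition among the 5 roles. The pooled SD had a median of 0.34 on the log2 scale over the 5 genes, beside 0.15 over all genes tested. ASNS, the asparagine synthetase that is induced by ATF4, was at 81.27, 68.69 and 54.37 TPM in the shCTL libraries and at 81.22, 54.2 and 49.17 TPM in shRor1. The highest library of each condition was at almost the same level, and the log2 fold change was -0.16 with an interval of -0.65 to 0.33. PPP1R15A (GADD34), which brings the phosphatase to eIF2α and ends the response, was at 117.44, 115.65 and 82.92 TPM and at 140.79, 87.08 and 73.25 TPM. Both the highest and the lowest of the 6 libraries were thus in shRor1, 1.92-fold apart.

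SESN2, a leucine sensor that restrains mTORC1, was at 6.7, 6.53 and 4.96 TPM in the shCTL libraries and at 7.84, 4.84 and 3.74 TPM in shRor1. It had the widest range of the 34 genes over the 6 libraries, 2.10-fold. CHAC1, which degrades glutathione, was at 6.78, 7.4 and 5.78 TPM and at 8.55, 6.08 and 6.02 TPM. TRIB3, a pseudokinase that feeds back on ATF4, was at 28.4, 27.51 and 22.34 TPM and at 30.29, 28.76 and 24.2 TPM. The log2 fold changes were -0.11 for PPP1R15A, -0.17 for SESN2, 0.03 for CHAC1 and 0.09 for TRIB3, and those of ATF4-responsive ASNS and SESN2 were below 0 by less than their pooled SD.

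**Figure D3:**
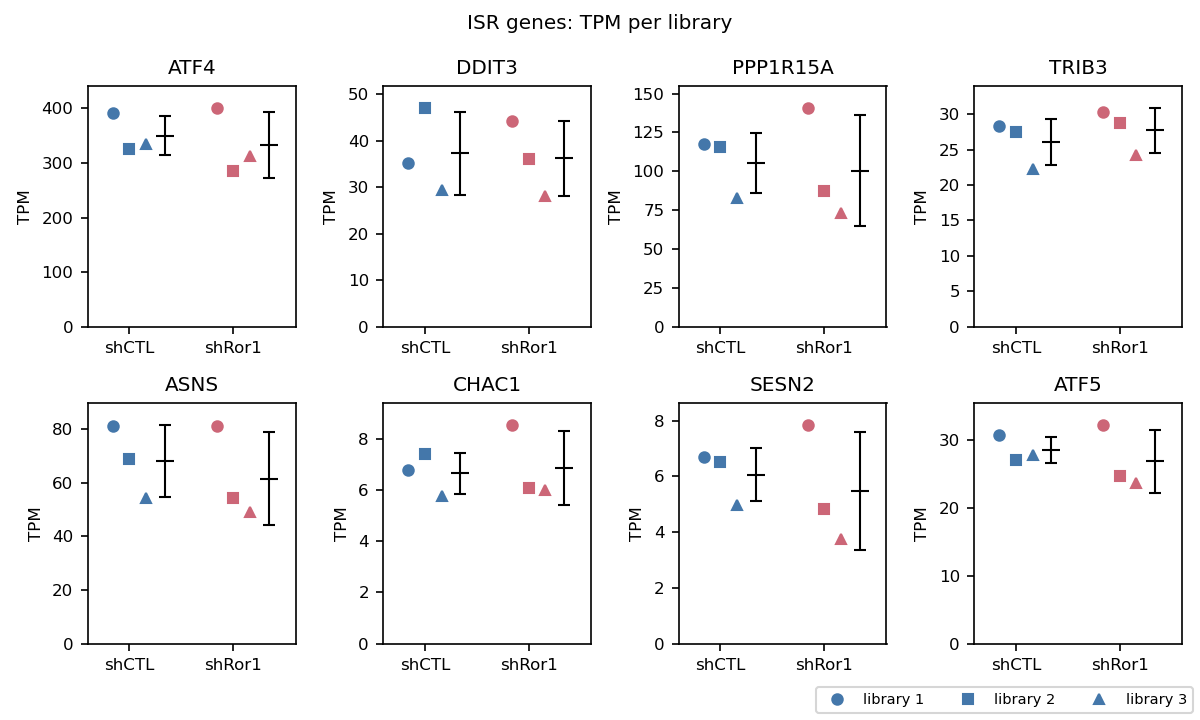
TPM of ATF4, DDIT3, PPP1R15A, TRIB3, ASNS, CHAC1, SESN2 and ATF5 in the 3 shCTL (blue) and 3 shRor1 (red) libraries, with the mean and SD of each condition in black; symbols mark the column order within a condition, which pairs no libraries. In shRor1 the circle (shRor1 1) is highest in all 8 panels, and in every panel the conditions overlap.

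Library shCTL 1 held the highest shCTL value and shRor1 1 the highest shRor1 value in 4 of the 5 ISR effectors (80.0%), beside 13.6% of all genes tested. The lowest values were in shCTL 3 and in shRor1 3 for all 5. Over all 16554 genes tested, shCTL 3 was the lowest of its condition for 4240 and shRor1 3 for 3863, each counted by itself. As a mean deviation from each gene's average over the 6 libraries, on the log2 scale, the 5 genes were at 0.18, 0.13 and -0.22 in the shCTL libraries and at 0.35, -0.13 and -0.31 in the shRor1 libraries. The 34 other ATF4 targets of a wider list, amino acid enzymes, amino acid transporters and tRNA synthetases among them, were at 0.16, 0.02 and -0.07 and at 0.14, -0.13 and -0.12. Of these, 24 (70.6%) were highest in shCTL 1 and in shRor1 1. SLC3A2, the heavy chain of the cystine and leucine transporters and a gene named after its values were seen, was at 362.49, 293.98 and 258.67 TPM in the shCTL libraries and at 354.27, 213.65 and 210.35 TPM in shRor1. The level of the ATF4 targets thus varied together among libraries of the same condition, and the part of culture, handling or sequencing in this was not tested. This was not confined to them. Of 9 mitochondrial chaperones and proteases 55.6% were highest in shCTL 1 and in shRor1 1, and of 12 genes of the eIF2 kinases, eIF2 and eIF2B 41.7%. For cytosolic heat shock genes it was 20.0% and for the ER chaperones 16.7%. The heat shock and mitochondrial genes had their lowest mean deviations in shCTL 3 (-0.12 and -0.05) and shRor1 3 (-0.17 and -0.15). The numbers 1 to 3 only name the columns and pair no library of one condition with one of the other.

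**Figure D4:**
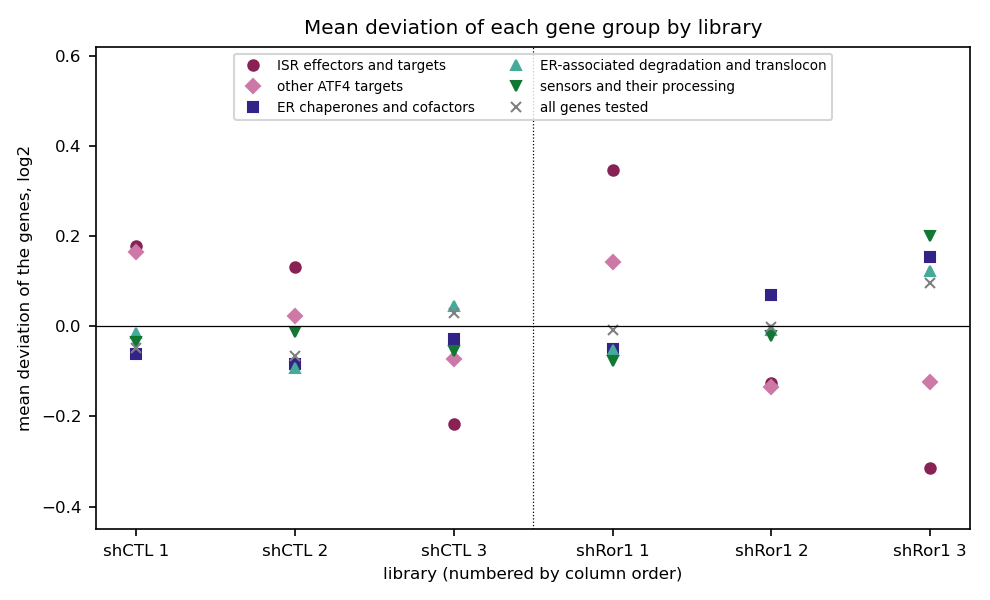
Mean deviation of each gene group from the gene's own average over the 6 libraries, in log2 units, for the ISR effectors, the other ATF4 targets, the ER chaperones, the ERAD and translocon genes, the sensors and all genes tested; the dotted line parts the conditions. The ISR effectors reach 0.18 in shCTL 1 and 0.35 in shRor1 1 and are at -0.22 in shCTL 3 and -0.31 in shRor1 3, while the chaperones stay between -0.08 and 0.15.

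The chaperones had other extremes. Their mean deviations were -0.06, -0.08 and -0.03 in shCTL and -0.05, 0.07 and 0.15 in shRor1, with ERAD and translocon genes at -0.02, -0.09 and 0.05 and at -0.05, -0.01 and 0.12. All genes tested were at -0.05, -0.07 and 0.03 and at -0.01, -0.0016 and 0.10. The mean over all genes was thus highest in shRor1 3, the library in which the chaperones were highest too, and its part in their level was not tested. Of the 34 genes, 13 had their highest value of all 6 libraries in shRor1 3, 4 in shRor1 2, 7 in shRor1 1 and 10 in a shCTL library. That count was not made over all genes tested. Within shRor1 alone, shRor1 3 was the highest library for 18 of the 34 and for 7653 of all 16554 genes tested. Of the 7 that peaked in shRor1 1, ATF4, ATF5, PPP1R15A, TRIB3, CHAC1 and SESN2 belong to the eIF2α arm.

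**Figure D5:**
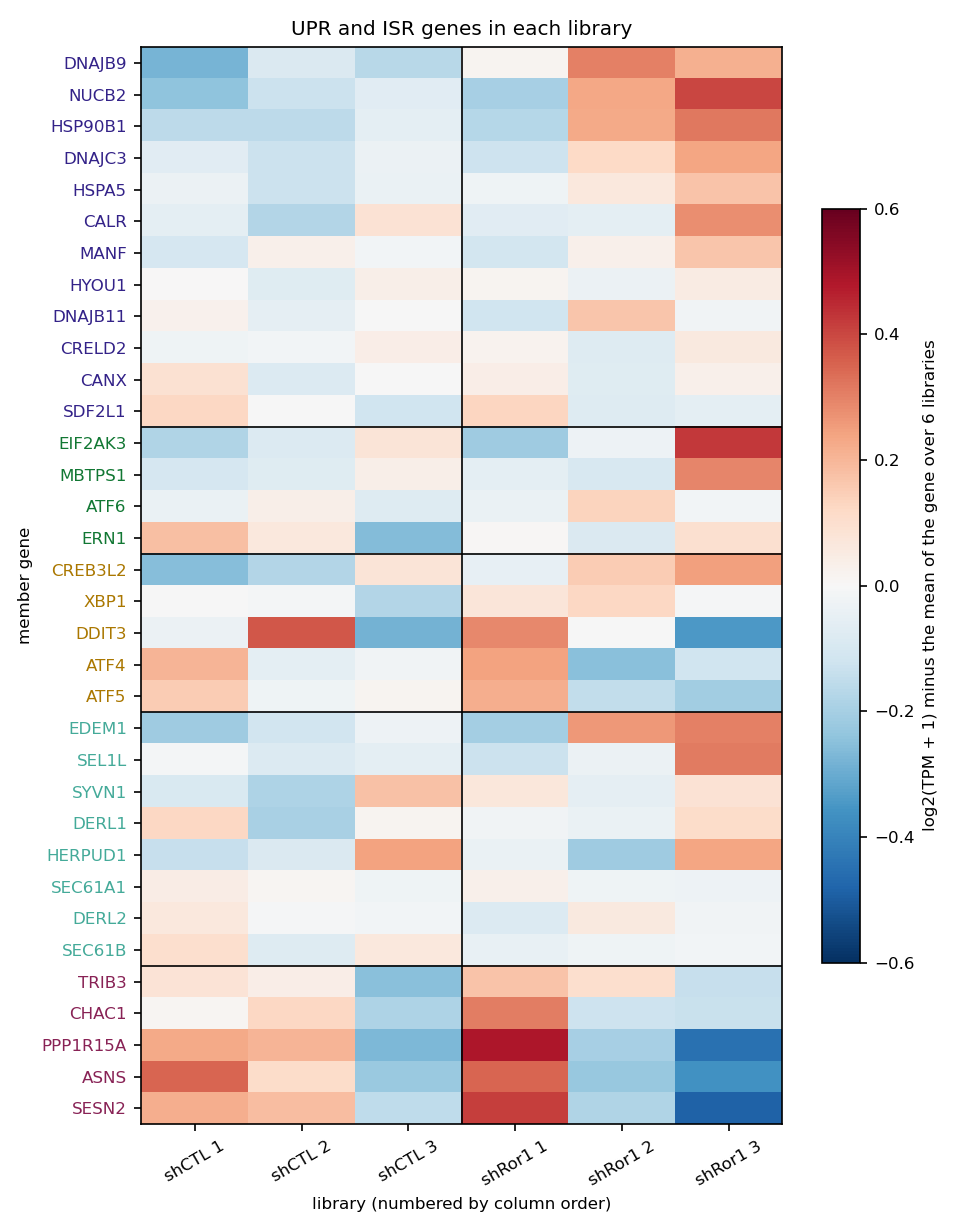
Log2(TPM + 1) of each of the 34 genes in each library minus the gene's mean over the 6 libraries, in log2 units, ordered by role (chaperones, sensors, transcription factors, ERAD and translocon, ISR effectors; lines part the roles) and within a role by the log2 fold change. The lowest rows, the ISR effectors, are mostly red in shCTL 1 and red in shRor1 1, and blue in shCTL 3 and shRor1 3, and the top rows are darkest red in shRor1 2 or 3.

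Other genes of the same pathways were examined in the same fit, from lists not filtered by value but chosen with earlier results of these data known. Of these genes 0 had an adjusted p below 0.05. Among the 34 other ATF4 targets 26 had a negative and 8 a positive log2 fold change, with a median of -0.09. Over all 16554 genes tested 5461 were negative and 11093 positive. Under median ratio scaling it was 29 and 5, beside 8246 and 8308 of all genes. The ATF4 targets varied together among libraries of a condition, so their signs are not separate observations, and the list as a whole was not tested. At an unadjusted p below 0.05 (limma), 1 of the 34 was lower in shRor1 and 0 were higher, beside 0.544% and 2.31% of all genes tested. That gene was NUPR1, a stress-induced chromatin protein, which was at 3.06, 2.52 and 3.23 TPM in the shCTL libraries and at 2.05, 1.82 and 2.18 TPM in shRor1. The conditions did not overlap, and shRor1 lay wholly below shCTL for 1.3% of all genes tested. The log2 fold change of NUPR1 was -0.38 with an SE of 0.13 (limma p = 0.0216 and adjusted p = 0.984, exact permutation p = 0.1). GPT2, a mitochondrial alanine transaminase, was next with 36.27, 33.19 and 31.38 TPM in shCTL and 33.51, 25.43 and 25.74 TPM in shRor1.

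The 12 genes of the eIF2 kinases, eIF2, eIF2B and PPP1R15B divided into 6 with positive and 6 with negative log2 fold changes, with a median of 0.01. EIF2B2, a subunit of the exchange factor that the ISR blocks, was at 54.57, 53.56 and 54.6 TPM in the shCTL libraries and at 55.2, 59.47 and 58.15 TPM in shRor1, so the conditions were apart by a small margin (log2 fold change 0.08, adjusted p = 0.984 with limma). In this list shRor1 lay wholly above shCTL for 2 of the 12 genes, beside 6.48% of all genes tested. EIF2AK2 (PKR), the kinase that answers double-stranded RNA, was at 67.9, 58.71 and 64.71 TPM and at 68.32, 65.4 and 72.01 TPM, and its conditions overlapped.

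Of 33 other ERAD and translocon genes 32 were tested, 20 of them with a positive and 12 with a negative log2 fold change (median 0.02). SEC61G, the third subunit of the SEC61 channel, was at 304.63, 288.41 and 293.29 TPM in the shCTL libraries and at 308.87, 372.91 and 321.7 TPM in shRor1, without overlap. Its log2 fold change was 0.17 with an interval of -0.02 to 0.37 (exact permutation p = 0.1). With SSR1, it was 1 of 2 genes of the 32 with shRor1 wholly above shCTL, beside 6.48% of all genes tested. The log2 fold changes of the partners SEC61A1 and SEC61B were -0.02 and -0.06, with intervals that spanned 0. ATF6B, the close relative of ATF6, was at 58.98, 55.81 and 68.11 TPM and at 66.35, 63.45 and 74.68 TPM, and its shCTL mean of 60.97 TPM was above the 20.03 TPM of ATF6 itself. CREB3, of the same family, had a log2 fold change of 0.10. ERN2, the IRE1 form of the gut epithelium, was below the level tested.

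Stress responses of other compartments were likewise without a call. In the cytosolic heat shock list 9 of 15 genes tested had a positive and 6 a negative value (median 0.01), with BAG3 at 0.13 and HSPB1 at 0.12. Among mitochondrial chaperones and proteases 2 of 9 were positive and 7 negative (median -0.06). TRAP1, the mitochondrial HSP90, was at 124.04, 119.21 and 115.94 TPM in the shCTL libraries and at 122.49, 87.53 and 91.59 TPM in shRor1 (log2 fold change -0.27). The mitochondrial co-chaperone DNAJA3 had a log2 fold change of -0.10. The 6 mRNAs reported as substrates of IRE1-dependent decay had a median of 0.01. BLOC1S1, the most widely used of these, was at 37.8, 37.79 and 40.44 TPM and at 38.01, 34.77 and 40.04 TPM (log2 fold change -0.04). COL6A1 was at 31.34, 35.36 and 54.76 TPM and at 34.31, 56.76 and 72.6 TPM, so its libraries differed within a condition by more than its log2 fold change of 0.40.

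Processed pseudogenes can share reads with their parent gene. Those named after HSPA5, XBP1, ATF4 and ASNS were all below 1 TPM in every library.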

How the data were processed

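RNA was isolated with Trizol, and strand-specific libraries were made from 1000 ng of total RNA, per the labels, which also name polyA RNA as the molecule, and read singly over 50 bases. The authors processed the reads with CASAVA 1.8.2 and FastQC 0.10.0, mapped them to GRCh37 (Ensembl release 73) with STAR and estimated abundances with RSEM 1.2.5. The deposited table, although called expected counts, holds TPM for 57445 genes in 6 columns. TPM is a share of the library, so a rise of abundant genes lowers all others, and depth is lost. Headers name the condition but no replicate, so libraries were numbered by column order. Per-sample columns left unused numbered 0.

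Genes reaching 1 TPM in 3 or more libraries (16554) were compared on log2(TPM + 1), with a pseudocount of 1, by limma 3.58.1 in R 4.3.3 with a mean-variance trend, two-sided, with Benjamini-Hochberg adjustment at 0.05. An exact two-sided permutation test was added for single genes. The script was tested on simulated data. Tables and figures were made with Python 3.11.15. The members and lists were chosen with earlier results of these data known. Named were all 34 genes, ROR1 and, of each further list, the 2 genes with the smallest p; others are marked, and some items are not reported here. Symbols were found for 55022 identifiers. Alternatives were no filter, a mean of at least 5 TPM, a pseudocount of 0.1, quantile normalization, median ratio scaling, protein-coding genes, other limma options and each library left out.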

Additional observations from a re-analysis of the deposited data

How the results depend on the processing

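No paired analysis was possible because no column header carries a replicate number, so no replicate block was fitted. In 15 alternative fits, 6 of which leave out 1 library each, no gene of the 34 had an adjusted p below 0.05 (range 0.44 to 1). Over all genes the count was 0 to 1 with a library left out, the 1 being without shRor1 3, and 0 in the 9 other fits. At an unadjusted p below 0.05 the count of the 34 was 1, with 0 under quantile normalization, 5 under array weights and 0 to 8 with a library left out (0 without shCTL 1 and without shRor1 2, 2 without shCTL 3, 8 without shRor1 1). Over all genes that count was 472 of 16554, and 1363 of 39104 without a filter, 227 of 11145 from a mean of 5 TPM and 222 for protein-coding genes. Of the same 16554 genes it was 859 under array weights and 278 to 1720 with a library left out. Genes higher in shRor1 made up 80.9% of the count in the main fit, 53.9% under quantile normalization and 58.5% under median ratio scaling. The median log2 fold change of the 34 was -0.022 under median ratio scaling.

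Of the 34 genes 12 kept their sign in all 15 fits, DNAJB9, HSPA5, HSP90B1 and NUCB2 among them, and 22 changed it at least once. Under quantile normalization the log2 fold change turned to 0.031 for CANX, -0.0051 for ATF6, -0.054 for CRELD2, -0.087 for ERN1 and -0.060 for CHAC1. Under median ratio scaling it turned to -0.0071 for ATF6, -0.043 for DNAJB11, -0.038 for HYOU1, -0.0027 for MANF, -0.057 for CRELD2, -0.042 for ERN1, -0.020 for CHAC1 and -0.024 for DERL1. Under array weights it turned to 0.012 for HERPUD1, -0.00084 for CRELD2, -0.076 for ERN1 and -0.029 for CHAC1. With 1 library left out, values that crossed 0 ran as follows. Among chaperones, CALR ran from -0.013 to 0.17, CANX from -0.044 to 0.043, DNAJB11 from -0.062 to 0.082, SDF2L1 from -0.069 to 0.058, HYOU1 from -0.0078 to 0.046, MANF from -0.010 to 0.13 and CRELD2 from -0.028 to 0.041. Among sensors, ERN1 ran from -0.12 to 0.10, EIF2AK3 from -0.060 to 0.26, ATF6 from -0.0018 to 0.084 and MBTPS1 from -0.032 to 0.16. ATF4 ran from -0.23 to 0.020 and DDIT3 from -0.19 to 0.14. In ERAD, HERPUD1 ran from -0.14 to 0.10, SEL1L from -0.031 to 0.19, SYVN1 from -0.0087 to 0.17, DERL1 from -0.052 to 0.11 and DERL2 from -0.066 to 0.0048. Of the ISR effectors, PPP1R15A ran from -0.38 to 0.089, TRIB3 from -0.016 to 0.18, CHAC1 from -0.11 to 0.11 and SESN2 from -0.42 to 0.034. Of the 14 genes that the rule takes from other lists, 13 kept their sign and BLOC1S1 ran from -0.086 to 0.013. NUPR1 had no value from a mean of 5 TPM. The cause of these shifts was not tested. The mapped reads that the study lists per replicate cannot be tied to single columns, and TPM keeps no counts, so no counting interval was set for low genes such as ERN1, SESN2 and DNAJB9.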
